A study of Mus musculus with 81 samples.

Results

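CpG-free windows were the 100 bp windows of the MBD-seq count tables that contained no CpG site, lay more than 1000 bp from every GENCODE transcript start and overlapped no mERV locus, that is, no annotated LTR retroelement. They made up 67437 of 154773 windows (43.6%) of the F1 table and 71804 of 164382 (43.7%) of the F3 table. MBD-seq was performed with genomic DNA of P6 cells, the EGFP-negative somatic cells sorted from E18.5 fetal testes of the OG2 mouse strain, which carries a Pou5f1-EGFP transgene that marks germ cells and was kept on the C57BL/6J background. F0 dams received 50 nM tributyltin (TBT), an organotin obesogen, or the 0.1% DMSO vehicle in drinking water, and the same generations and stage were collected for both exposures. F1 fetuses were in utero during the exposure, whereas F3 fetuses descended from exposed dams and received none. There were 3 DMSO and 4 TBT libraries in F1, and 5 DMSO and 7 TBT libraries in F3, numbered here as in their labels. The comparison of TBT with DMSO addressed whether ancestral exposure changed the recovery of DNA that carries no methylation target of its own.

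In mammalian somatic cells, DNA methylation is found nearly exclusively at the cytosine of CpG dinucleotides. The methyl-CpG binding domain (MBD) protein retains sheared DNA fragments that hold methylated CpG sites, and a retained fragment also brings along its neighbouring bases that have none. Counts in a CpG-free window therefore mix fragments that reach a methylated CpG outside the window with DNA that was carried through the capture without one, and repeated sequence can gather or lose reads in mapping.

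The identity of the P6 cells was examined in the RNA data, as RNA signal at LTR loci inside marker genes, with P5 EGFP-positive germ cells as the comparator. These tables were normalized separately, so their levels are set side by side without a test. In F1, 15 of the 17 somatic marker genes with such loci were higher in P6 than in P5, with a summed signal of 3267 against 739, and all 10 germ cell genes were lower, with 30.2 against 10527. These sums are of gene medians over libraries. The 2 somatic genes lower in P6 were Dmrt1, at 439 against 582 in P5, and Pecam1, at 9.09 against 24.9. Kdr counted as higher at only 0.343 against 0, and Tex101 as lower at 0 against 0.336. In F3, 16 of 17 somatic genes were higher (2790 against 488), and of 10 germ cell genes 9 were lower and none higher (22.4 against 7535). Single F3 libraries stood apart from these medians. Mael reached 58.0 in a P6 library (median 0.340) and was as low as 14.3 in a P5 library (median 2640). In P6, 1 germ cell gene in F1 and 2 in F3 were at 0. Methylation per cell and the mix of somatic cell types cannot be told apart in these bulk preparations.

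Sequences of windows from both ends of the count range are given below with their flanks, as the plus strand of the GRCm38 assembly, 5′ to 3′. The middle 100 bases of each line are the window, lower-case letters carry no CpG, and capitals mark each CpG site. The first pair were the windows with the highest mean counts in F1 and F3, the next pair were the tandem repeats among the 5 highest of each table, the fifth was the CpG-free window with the lowest p-value in F1, and the last was the single-copy window farthest from any CpG in F1, which was chosen after its values were seen.
Sfi1 intron, F1, chr11:3160901-3161200: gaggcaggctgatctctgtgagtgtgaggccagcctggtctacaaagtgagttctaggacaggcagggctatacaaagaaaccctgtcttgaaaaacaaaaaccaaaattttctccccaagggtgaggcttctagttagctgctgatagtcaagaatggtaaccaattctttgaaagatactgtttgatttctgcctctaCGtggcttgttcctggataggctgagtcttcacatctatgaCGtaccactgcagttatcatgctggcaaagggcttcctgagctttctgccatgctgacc
Outside genes, F3, chr2:181917901-181918200: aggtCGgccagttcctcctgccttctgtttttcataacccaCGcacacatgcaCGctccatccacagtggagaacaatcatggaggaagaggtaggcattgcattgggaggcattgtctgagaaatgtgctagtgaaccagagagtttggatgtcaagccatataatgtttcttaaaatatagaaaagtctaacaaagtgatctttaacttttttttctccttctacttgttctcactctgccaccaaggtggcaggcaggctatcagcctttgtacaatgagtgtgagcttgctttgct
Tandem repeat, F1, chr10:3116801-3117100: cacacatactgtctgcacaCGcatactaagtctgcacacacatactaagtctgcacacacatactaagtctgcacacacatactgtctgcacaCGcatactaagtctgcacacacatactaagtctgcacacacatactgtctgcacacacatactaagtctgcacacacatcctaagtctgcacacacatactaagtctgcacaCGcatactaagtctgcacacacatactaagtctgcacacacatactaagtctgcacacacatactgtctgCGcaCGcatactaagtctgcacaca
Tandem repeat, F3, chr17:3022901-3023200: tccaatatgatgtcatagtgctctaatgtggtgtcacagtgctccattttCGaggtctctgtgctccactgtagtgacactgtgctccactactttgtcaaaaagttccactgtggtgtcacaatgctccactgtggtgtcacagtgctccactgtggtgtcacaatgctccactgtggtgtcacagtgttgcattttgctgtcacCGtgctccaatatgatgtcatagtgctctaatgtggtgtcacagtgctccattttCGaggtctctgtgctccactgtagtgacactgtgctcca
Outside genes, F1, chr4:64498001-64498300: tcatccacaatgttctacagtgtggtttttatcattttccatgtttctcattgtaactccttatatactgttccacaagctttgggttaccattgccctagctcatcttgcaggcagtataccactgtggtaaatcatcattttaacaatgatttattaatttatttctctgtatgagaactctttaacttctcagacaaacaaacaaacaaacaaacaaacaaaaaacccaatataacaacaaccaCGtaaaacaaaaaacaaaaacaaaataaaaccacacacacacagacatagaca
Far from any CpG, F1, chr11:92724701-92725000: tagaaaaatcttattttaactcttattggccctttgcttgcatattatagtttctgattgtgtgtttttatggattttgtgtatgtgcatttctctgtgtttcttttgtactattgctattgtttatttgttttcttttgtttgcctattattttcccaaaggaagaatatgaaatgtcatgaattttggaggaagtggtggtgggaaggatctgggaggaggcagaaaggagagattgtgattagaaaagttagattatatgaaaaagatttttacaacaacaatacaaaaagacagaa
Every high window in this set had a CpG within the printed flank, and 5 CpG sites stood in the 300 bases around the F1 tandem repeat. The last sequence held none, and its nearest CpG was 1563 bp away. Its counts were 1, 2 and 4 in the DMSO libraries and 1, 4, 1 and 1 in the TBT libraries, against 177, 142 and 140 and 245, 269, 135 and 300 for the Sfi1 window.

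CpG-free windows covered much of the table but contributed a smaller part of its counts. Of the F1 windows, 4171 were assembly gaps without bases, of which 5 held a count, and 680 of the 63266 windows with bases were empty in every library. In F3, 4639 windows were gaps (6 with a count) and 844 of 67165 windows with bases were empty. The table totals were 701493 to 1913353 counts per library in F1 and 1105120 to 1556376 in F3. These totals are not library depths, because the tables held 0.588% and 0.624% of the genome's windows. Levels are given as counts per 1000000 counts of the table (CPM). The median CpG-free window had 3.64 CPM in F1, with a 5th to 95th percentile range of 0.735 to 11.5, and 2.35 CPM in F3, with a range of 0.221 to 11.8.

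Counts rose with the number of CpG sites in a window in both generations. With the same position rules, F1 windows with no CpG averaged 4.58 ± 0.113 CPM (SD over libraries, n = 7), those with 1 CpG 7.03, those with 2 CpG 10.4, and those with 5 or more 16.4 ± 1.05. In F3 the averages were 3.73 ± 0.256 CPM (n = 12) with no CpG, 6.49 with 1, 10.6 with 2 and 18.99 ± 2.72 with 5 or more. The CpG-free class was the lowest of these classes in each table, and the step from no CpG to 5 or more was larger in F3.

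Within the CpG-free windows, counts followed the distance to the nearest CpG. The median distance from the window edge was 68 bp in both tables, and 62.9% of F1 and 63.0% of F3 windows lay within 100 bp of a CpG. F1 windows 1 to 25 bp from a CpG averaged 6.67 ± 0.0699 CPM, those at 101 to 150 bp 3.63, those at 201 to 300 bp 1.99, and those at 301 to 500 bp 1.53 ± 0.111. Beyond that distance the F1 level no longer fell steadily, at 1.55 ± 0.146 for 501 to 1000 bp. F3 windows started at 6.09 ± 0.162 CPM, passed 2.63 at 101 to 150 bp and 0.849 at 201 to 300 bp, and reached 0.446 ± 0.281 at 301 to 500 bp. The level at the far end, taken over windows more than 300 bp from a CpG, served as the measure of background capture. This cut was chosen after the decline was seen and is reported without a test. It took in 4658 F1 windows (7.36%) and 4885 F3 windows (7.27%). In F1 the windows near a CpG exceeded the far windows by 4.04-fold to 4.99-fold depending on the library. In F3 they did so by 5.03-fold in TBT library 8 and by 10.6-fold to 28.8-fold in the other libraries.

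**Figure D1:**
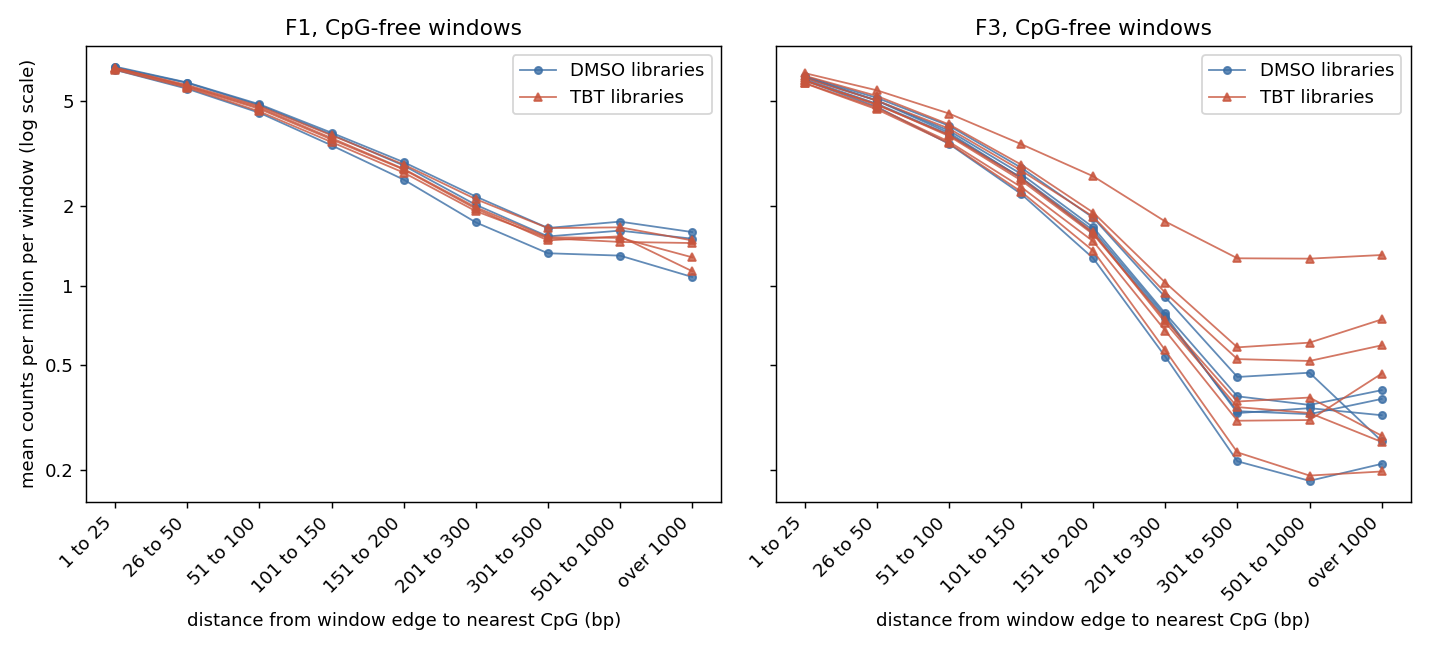
Mean CPM per CpG-free window (log scale) against the distance in bp from the window edge to the nearest CpG, for F1 and F3, with 1 line per library (circles, DMSO; triangles, TBT). The lines fall from 6.67 CPM in F1 and 6.09 CPM in F3 at 1 to 25 bp and flatten beyond 300 bp, and TBT library 8 of F3 flattens at 1.27 CPM, above the other F3 libraries.

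The number of surrounding CpG sites gave the same gradient. In F1 the mean rose from 1.78 CPM with no CpG within 200 bp of the window to 12.3 with 8 or more, and in F3 from 0.664 to 14.2 CPM. Position within genes went with different levels near a CpG. F1 windows within 50 bp of a CpG averaged 8.41 CPM over exons, 6.72 in introns and 5.74 outside genes, and the F3 averages were 8.36, 6.20 and 4.95 CPM. Far from a CpG these classes differed by less CPM, at 1.67, 1.501 and 1.54 CPM in F1 and 0.561, 0.441 and 0.444 CPM in F3. Exons were the highest class there too, and their far level in F1 rests on 86 windows. The position rules themselves had small effects at their limits. CpG-free windows 501 to 1000 bp from a transcript start, just outside the rule, averaged 5.36 CPM in F1 and 4.8001 in F3, and those at 1001 to 1500 bp, just inside it, 5.20 and 4.62 CPM. CpG-free windows inside LTR loci averaged 4.27 CPM in F1 and 3.54 in F3, against 4.59 and 3.72 CPM outside them. Beyond 300 bp from a CpG, the LTR windows had 1.24 CPM in F1 and 0.316 in F3, against 1.53 and 0.429 CPM.

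Base composition and the X chromosome separated far from near windows. In windows more than 300 bp from a CpG, F1 levels fell from 2.00 ± 0.177 CPM at under 30% GC to 0.987 ± 0.113 at 45% GC or more, and F3 levels from 0.559 ± 0.350 to 0.308 ± 0.161 CPM. F1 windows within 50 bp of a CpG changed less, from 6.84 to 6.11 CPM. Those of F3 had no single direction, at 5.65 CPM under 30% GC, 5.33 at 35 to 39% and 5.95 at 45% or more. The testes are male, and male cells carry a single X beside paired autosomes. The mean count of a far window on X was 0.482 to 0.556 of that on an autosome in F1 and 0.481 to 0.573 in F3. Over all CpG-free windows the ratio was 0.405 to 0.419 in F1 and 0.329 to 0.417 in F3, so in every library it was lower than in the far windows.

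**Figure D2:**
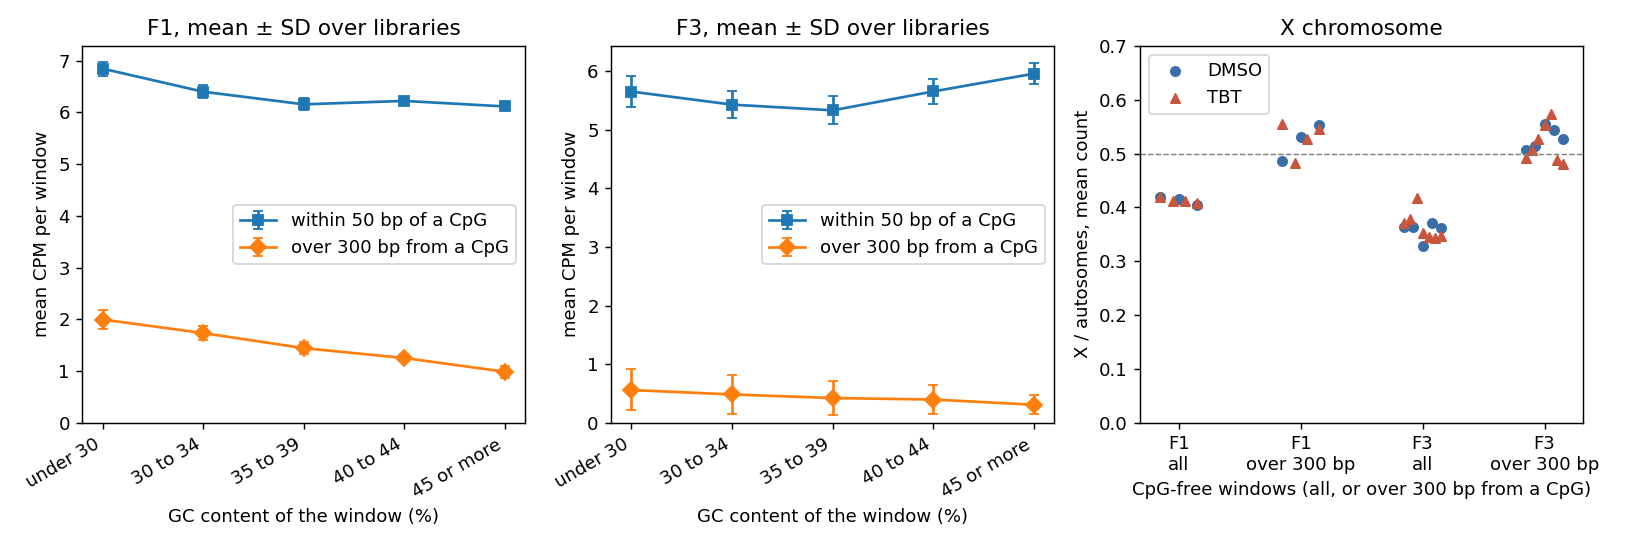
Left and middle, mean CPM per CpG-free window (± SD over libraries) against GC content in percent, for windows within 50 bp of a CpG and windows over 300 bp from one. Right, ratio of the mean count on X to that on autosomes, 1 point per library and a dashed line at 0.5; the far windows sit at 0.481 to 0.573 and all CpG-free windows at 0.329 to 0.419.

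The far windows had different levels in F1 and F3. The DMSO libraries averaged 1.52 ± 0.182 CPM there in F1 (n = 3) and 0.340 ± 0.0887 in F3 (n = 5), and their ranges did not overlap. The tables share few windows, but the difference was present in those as well. The 29 shared CpG-free windows more than 300 bp from a CpG averaged 1.79 ± 0.226 CPM over the F1 libraries (1.39 to 2.03) and 0.584 ± 0.294 over the F3 libraries (0.292 to 1.37), whereas the 173 shared windows within 50 bp averaged 6.17 ± 0.207 and 5.50 ± 0.314 CPM. The ranges of the far windows did not overlap. Generation and library preparation or sequencing run cannot be told apart here, so the difference is not a result about generations.

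The share of table counts in CpG-free windows did not differ detectably between exposures. In F1 it was 29.9%, 29.6% and 27.9% in the DMSO libraries and 29.0%, 29.4%, 28.4% and 28.8% in the TBT libraries. The groups overlapped, with means of 29.1 ± 1.09% and 28.9 ± 0.448%, and TBT minus DMSO was -0.215 percentage points (SE 0.671; two-sided exact permutation p = 0.686). With 3 against 4 libraries this test cannot go below 0.0571. In F3 the DMSO libraries had 25.3%, 24.9%, 23.2%, 26.03% and 24.6%, and the 7 TBT libraries ranged from 23.0% to 29.3%. The means were 24.8 ± 1.04% and 25.2 ± 2.15%, and the difference was 0.394 points (SE 0.938; exact permutation p = 0.768, smallest possible 0.00253). The highest share, 29.3%, was that of TBT library 8, and without it the difference turned to -0.282 points (exact permutation p = 0.706). Wilson 95% intervals of single shares had half-widths of at most 0.107 points in F1 and 0.0803 in F3 and cover counting error only.

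The capture ratio, the log2 ratio of the mean count of windows with 5 or more CpG to that of CpG-free windows, compared CpG-rich with CpG-free windows within a library. In F1 it was 1.67, 1.72 and 2.02 in DMSO libraries and 1.84, 1.77, 1.97 and 1.86 in TBT libraries. The group means were 1.81 ± 0.19 and 1.86 ± 0.08, a difference of 0.05 (SE 0.12; exact permutation p = 0.629). In F3 the DMSO values were 2.21, 2.31, 2.55, 2.09 and 2.41, and the TBT values ran from 1.68 in library 8 to 2.75 in library 10. The F3 means were 2.31 ± 0.18 and 2.36 ± 0.39, a difference of 0.04 (SE 0.17; exact permutation p = 0.816). The exposure groups thus overlapped in each generation. The effect of exposure did not differ detectably between generations for the share (F1 effect minus F3 effect -0.609 points, exact permutation p = 0.636) or for the capture ratio (0.01, exact permutation p = 0.963). All 9 tests of library measures had an adjusted p of 0.963.

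Background capture overlapped between exposures in both generations, with the highest F3 values in TBT libraries. The far windows had 1.68, 1.56 and 1.32 CPM in the F1 DMSO libraries and 1.52, 1.65, 1.502 and 1.49 CPM in the F1 TBT libraries. In F3 the DMSO libraries had 0.375, 0.333, 0.208, 0.453 and 0.333 CPM, and the TBT libraries 6 to 12 had 0.526, 0.592, 1.27, 0.342, 0.223, 0.366 and 0.310 CPM. TBT libraries 6, 7 and 8 were thus above the highest DMSO library and the other 4 TBT libraries within the DMSO range. The F3 TBT mean was 0.519 ± 0.355 CPM with TBT library 8 and 0.393 ± 0.139 CPM without it (n = 6), against 0.340 ± 0.0887 CPM in DMSO. TBT library 8 also had the lowest capture ratio in F3 and the lowest share of empty far windows, 20.9% against 49.7% to 80.2% in the other F3 libraries. The far level, multiplied by the number of windows with bases in the whole table, came to 19.9% to 25.3% of the table counts in F1, to 3.32% to 9.46% in 11 F3 libraries and to 20.3% in library 8. This product takes the far level as equal in every window. The far level fell with GC content, and windows with CpG had a median GC of 44% against 38% in CpG-free windows, so the product is a rough figure.

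**Figure D3:**
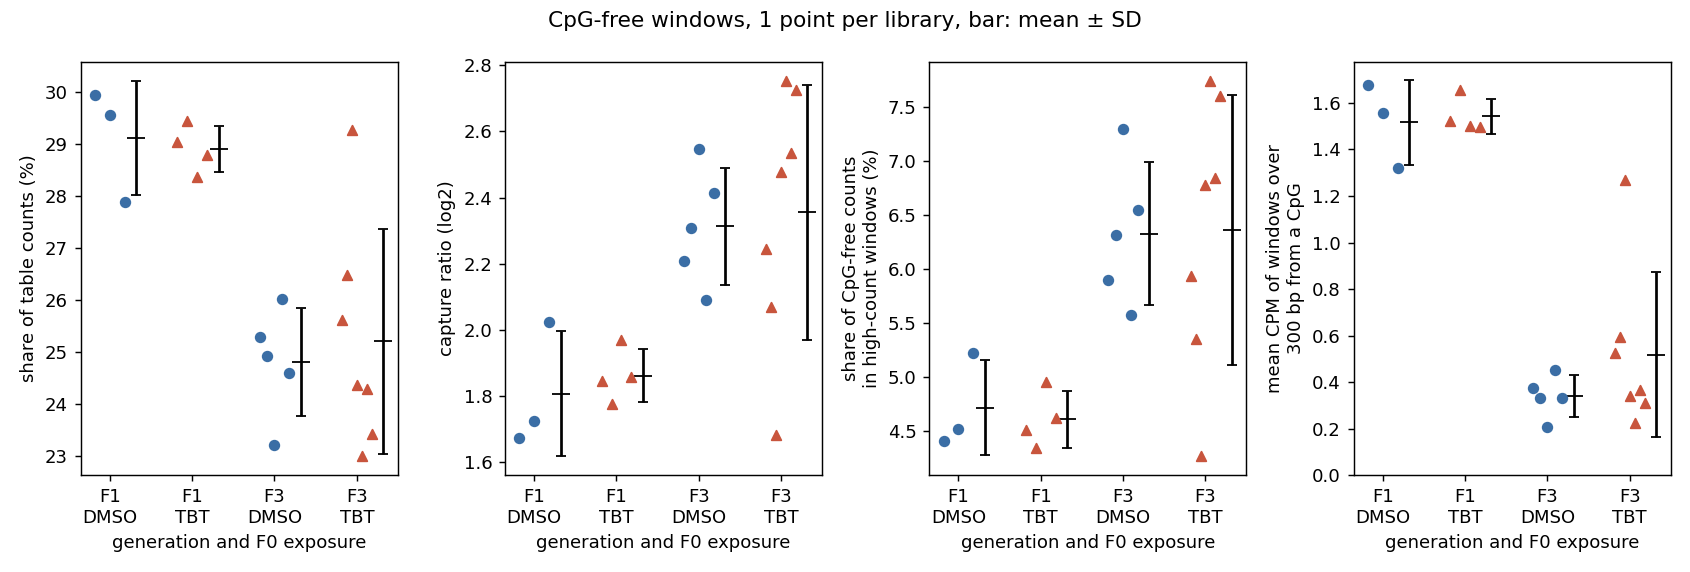
Per-library values of the CpG-free windows by generation and F0 exposure: share of table counts (%), capture ratio (log2), share of CpG-free counts in high-count windows (%) and mean CPM of windows over 300 bp from a CpG; 1 point per library, bars are mean ± SD. DMSO and TBT points overlap in every panel within a generation, and TBT library 8 of F3 has the highest share (29.3%), the lowest capture ratio (1.68), the lowest high-count share (4.27%) and the highest far level (1.27 CPM) of the F3 libraries.

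High-count windows were the highest 1% of CpG-free windows by mean CPM, 675 windows at or above 16.1 CPM in F1 and 719 at or above 17.8 CPM in F3. Being the upper end of a continuous distribution, they had no gap at the limit, with 16.1 CPM on both sides in F1 and 17.8 CPM on both sides in F3. Their median level was 18.1 CPM in F1 and 20.6 in F3, against 3.60 and 2.32 CPM for the other windows. Most of these windows were close to CpG sites. The median distance to a CpG was 15 bp in F1 and 13 bp in F3, against 69 bp for the others in both, and 8 and 9 CpG sites lay within 200 bp, against 2. Only 2 high-count windows of F1 and 0 of F3 were more than 300 bp from a CpG. Windows inside genes made up 66.8% of high-count windows in F1 and 68.6% in F3, against 44.1% and 43.9% of the others.

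Copy number in the genome was estimated from exact matches of 4 stretches of 32 bases per window. Only the assembled chromosomes were searched, so diverged copies and copies missing from the assembly were not counted. A window counted as single-copy can therefore still be repeated sequence. A median of 2 or more copies was found in 12.7% of the high-count windows in F1 (86 windows) and in 11.8% in F3 (85 windows), against 16.6% of the other windows in each table. Fully soft-masked repeats were 6.67% and 5.56% of high-count windows and 14.4% and 14.6% of the others. Multi-copy sequence was more frequent at the very top, in 23 of the 68 highest windows in F1 (33.8%) and 17 of 72 in F3 (23.6%). It was most frequent among empty windows. Of the windows with no count in any library, 98.4% in F1 and 86.8% in F3 had 2 or more copies, and the share of empty windows rose from 0.0212% of single-copy windows to 10.3% of those with over 100 copies in F1, and from 0.191% to 9.92% in F3. High-count windows were 1.63% of windows with 2.5 to 10 copies and 0.487% of those with over 100 copies in F1, and 1.52% and 0.343% in F3.

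**Figure D4:**
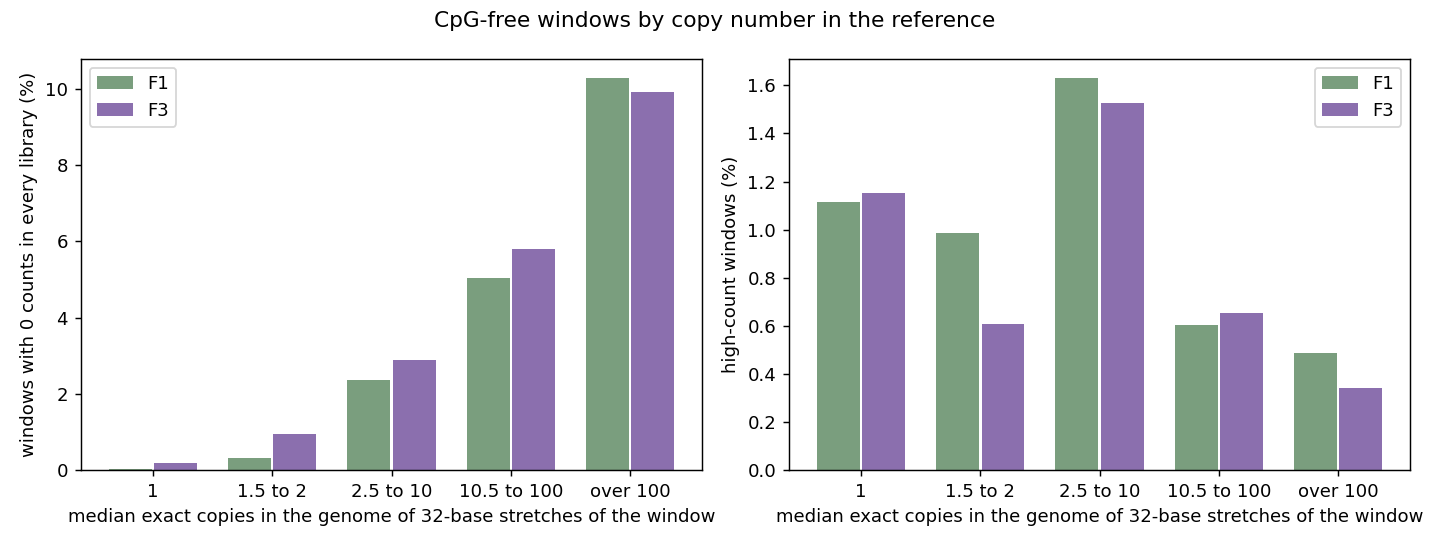
Percent of CpG-free windows with 0 counts in every library (left) and percent that were high-count (right), against the median number of exact genome copies of the window's 32-base stretches, for F1 and F3. Empty windows reach 10.3% and 9.92% above 100 copies, and high-count windows peak at 1.63% and 1.52% at 2.5 to 10 copies.

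High-count windows were spread over the autosomes and were nearly absent from X. In F1, 0.296% of them lay on X, against 7.61% of the other windows, and in F3 0% against 7.79%. In 6 megabases, chosen after the values were seen and given without a test, 4 or more high-count windows made up at least 20% of the CpG-free windows in either table. These megabases held 39 of the 675 high-count windows in F1 (5.78%) and 16 of 719 in F3 (2.23%). On chromosome 4, 11 of the 27 CpG-free windows of F1 in the megabase from 147 Mb were high-count, as were 5 of 24 in F3. 17 of these F1 windows and 19 of the F3 windows had 2 or more copies. The neighbouring megabase from 146 Mb had 5 of 18 in each table. These stretches hold tandemly arranged zinc finger genes, among them Zfp981, Zfp987, Zfp978 and Zfp985, and Rex2. On chromosome 1 from 85 Mb, 7 of 14 F1 windows and 2 of 17 F3 windows were high-count, in the cluster of Sp110 and Sp140, which encode interferon-inducible nuclear body proteins. On chromosome 5 from 15 Mb the counts were 6 of 12 in F1 and 3 of 15 in F3, and on chromosome 8 from 19 Mb, near the defensin gene Defb5, 6 of 27 and 1 of 18. A further stretch, on chromosome 4 from 152 Mb, had 4 of 15 in F1 and 0 of 8 in F3, only 2 of the F1 windows being multi-copy, with a median of 6 CpG sites within 200 bp. Other megabases with several high-count windows, outside these limits, included mostly single-copy ones. In F1, chromosome 11 from 5 Mb had 3 of 9 high-count with 1 multi-copy window, and chromosome 17 from 85 Mb 3 of 11 with 0 multi-copy, shares above that of the chromosome 8 stretch. Further ones were chromosome 10 from 81 Mb, with 9 of 220 windows high-count and 26 multi-copy, and chromosome 12 from 99 Mb, with 6 of 69 high-count and 4 multi-copy. In F3, chromosome 5 from 144 Mb had 5 of 29 high-count and 1 multi-copy, as many high-count windows as either chromosome 4 cluster in that table, whereas chromosome 16 from 3 Mb had 4 of 32 high-count and 21 multi-copy.

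The share of CpG-free counts held by high-count windows did not differ detectably between exposures. In F1 it was 4.41%, 4.52% and 5.22% in DMSO libraries and 4.52%, 4.34%, 4.96% and 4.62% in TBT libraries. The difference was -0.108 points (SE 0.286; exact permutation p = 0.629). In F3 the DMSO libraries had 5.89%, 6.31%, 7.30%, 5.57% and 6.55%, and the TBT libraries had 4.27% to 7.74%. Means were 6.33 ± 0.661% and 6.36 ± 1.25%, and the difference was 0.0363 points (SE 0.558; exact permutation p = 0.942). The F1 effect minus the F3 effect was -0.145 points (exact permutation p = 0.823).

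edgeR's quasi-likelihood test with Benjamini-Hochberg adjustment over all windows called no CpG-free window at FDR 0.05 in either generation. In F1, 6159 CpG-free windows (9.13%) passed the count filter and 0 were called, against 0.0112% of all windows tested (4 of 35666). At an unadjusted p under 0.05 there were 294 (4.77%), 199 higher and 95 lower in TBT, against 5.04% of all windows. The DESeq2 Wald test called 0 and edgeR's likelihood ratio test called 2. In F3, 9711 CpG-free windows (13.5%) were tested and 0 were called, against 0% of all 48568 windows, with 441 (4.54%) at an unadjusted p under 0.05, 170 higher and 271 lower in TBT, against 4.18% of all windows. DESeq2 and the likelihood ratio test called 0 in F3. The median log2 fold change of the CpG-free windows was 0.03 in F1 and -0.02 in F3, beside 0.05 and -0.02 over all windows tested. The sign of these medians depended on the setting. The F1 median was -0.00206 with library totals and -0.00319 with median-ratio size factors, and the F3 median was 0.09 with no count filter and 0.00613 with a mean of at least 20 counts. The filter keeps windows with higher counts, so the windows tested do not represent the empty and low windows. Of 447 CpG-free windows in both tables, 78 were tested for a generation-by-exposure interaction and 0 were called, against 0.33% of all windows tested (1 of 303). The lowest FDR was 0.325, and 4 (5.13%) had an unadjusted p under 0.05. The share of all 303 windows at that p was not computed. With simulated 2-fold changes in 200 windows drawn from all windows of the table with a mean of 3 or more counts, and not from the CpG-free windows alone, the F1 test recovered 10% and the F3 test 25%, and with 3-fold changes 31% and 54%. These percentages are of all 200 changed windows, whether or not they passed the count filter, so they do not separate the filter from the test. All simulated windows shared 1 common dispersion. The recovery among CpG-free windows was not computed.

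Among the high-count windows alone, all of which were tested, 318 of 675 had a higher fitted level in TBT and 357 a lower one in F1, with a median log2 fold change of -0.01, and 31 had an unadjusted p under 0.05, beside 263 of 5484 other CpG-free windows tested and 5.04% of all windows. In F3 the split was 367 higher and 352 lower, with a median of 0.01 and 11 of 719 at an unadjusted p under 0.05, beside 430 of 8992 other CpG-free windows and 4.18% of all windows. The other tested windows had medians of 0.04 in F1 and -0.03 in F3.

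The highest CpG-free window of F1 lay in an intron of Sfi1, which encodes a centrin-binding protein of the centrosome, at chr11:3161001-3161100. Its mean was 169 CPM, 46.5 times the median CpG-free window. Its CPM values were 189, 202 and 151 in DMSO libraries and 163, 159, 152 and 157 in TBT libraries. The groups overlapped, and the log2 fold change was -0.15 ± 0.13 (SE; edgeR FDR = 0.998). All 4 of its stretches occurred once in the assembly, and the next CpG stood 1 bp from its edge. A further Sfi1 window, chr11:3140701-3140800, had 118 CPM and a log2 fold change of -0.16 ± 0.14. The window over an exon of Sp110 at chr1:85596101-85596200 had 67.1 CPM (log2 fold change -0.08 ± 0.16). The tandem repeat at chr10:3116901-3117000 had 60.9 CPM, with 63.4% of its 8-mers repeated within the window and 145, 21, 2 and 1 copies of its stretches. Its counts were 59, 31 and 66 in DMSO and 82, 108, 65 and 110 in TBT libraries, with a log2 fold change of 0.05 ± 0.17. The exposure groups overlapped in each of these 4 windows.

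2 F1 windows came close to the threshold, both lower in TBT. The window at chr4:64498101-64498200, outside genes and 48 bp from a CpG, had 130, 163 and 128 CPM in DMSO libraries and 82.6, 80.8, 121 and 78.9 CPM in TBT libraries. The groups did not overlap, and the log2 fold change was -0.62 ± 0.14 (edgeR FDR = 0.0565). Its raw counts were 122, 114 and 119 in DMSO and 124, 137, 107 and 151 in TBT libraries, so they varied far less than the 2.73-fold range of the library totals. The slope of log count on log total was 0.261, against a median of 0.930 for high-count windows and 0.996 for 8349 other windows with a mean of 10 or more counts. 3 of the 4 TBT libraries had larger totals than all DMSO libraries, and TBT library 6, with a total like that of the DMSO libraries, had 121 CPM. The part of library total in this difference was not tested. Without TBT library 6 the window passed the threshold (log2 fold change -0.75; FDR = 3.63e-06). The second, at chr16:18533301-18533400 in an intron of Gnb1l, which encodes a WD-repeat protein, had 68.2, 67.0 and 87.5 CPM in DMSO and 42.7, 53.7, 33.8 and 42.3 CPM in TBT libraries. All TBT values were below all DMSO values, with a log2 fold change of -0.72 ± 0.17 (edgeR FDR = 0.0802). Its slope on the library total was 0.624, and TBT library 6 had its lowest value, 33.8 CPM. Because most TBT libraries had the larger totals, a window with lower CPM in TBT also has a low slope, and the slope is no measure independent of the fold change. Under 5 other settings both windows passed the threshold.

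**Figure D5:**
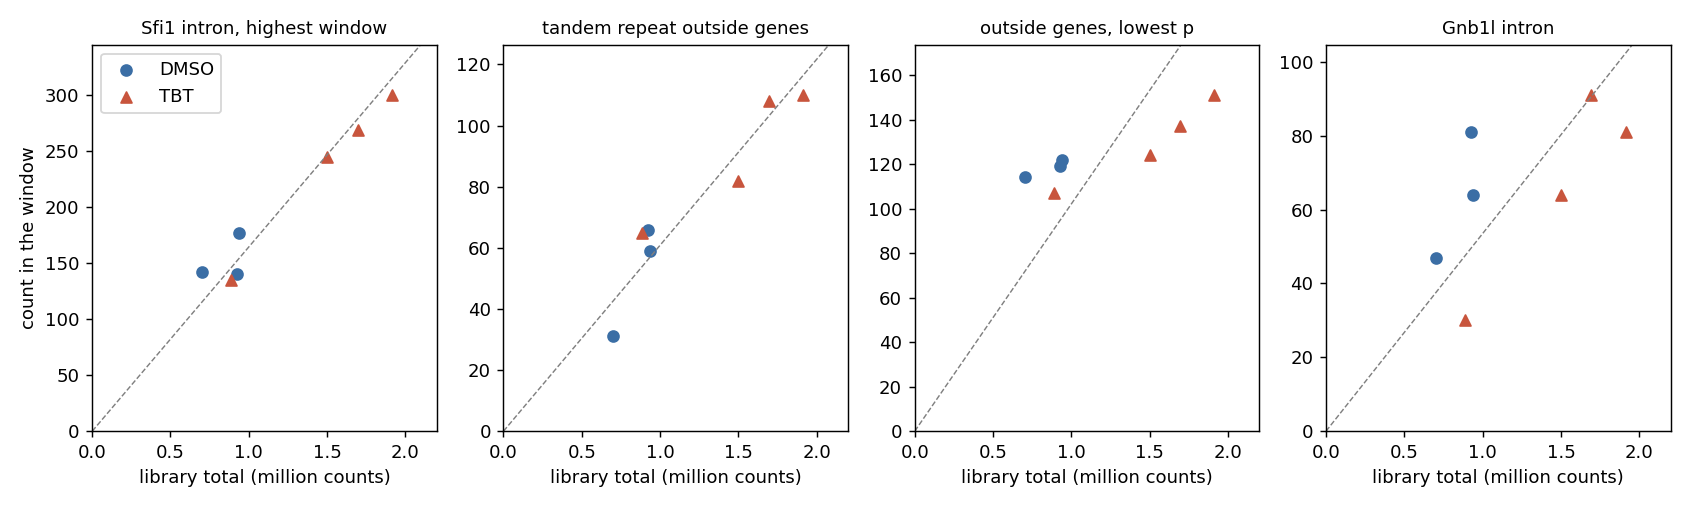
Count in 4 F1 windows against the library total in table counts (axis in units of 1000000) (circles, DMSO; triangles, TBT), with a dashed line proportional to the total. The Sfi1 window and the tandem repeat follow the line, the chromosome 4 window runs from 107 to 151 counts across the totals, and in the Gnb1l window every TBT library lies at a lower CPM than every DMSO library.

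The CpG-free windows of F1 with the lowest p among those higher in TBT had low counts. The window at chr8:103327601-103327700 in Gm32531 had 4, 5 and 5 counts in DMSO libraries and 25, 23, 17 and 21 in TBT libraries. It is multi-copy, with 37, 2226, 1 and 1 copies of its stretches and 81 of its bases soft-masked. The groups did not overlap in CPM, and the log2 fold change was 1.41 ± 0.37 (edgeR FDR = 0.232). The window at chr2:10339901-10340000 in Gm13261 had 3, 9 and 5 counts in DMSO and 27, 20, 20 and 30 in TBT libraries, with overlapping CPM and a log2 fold change of 1.31 ± 0.34 (edgeR FDR = 0.232). The stretches of the Gm13261 window each occurred once, and neither window passed the threshold.

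In F3 the highest CpG-free window, chr2:181918001-181918100, lay outside genes and had 98.1 CPM, 41.7 times the median. The DMSO libraries had 93.0, 101, 98.1, 92.3 and 103 CPM, and the TBT libraries had a lowest of 82.2, a median of 100.11 and a highest of 109 CPM. The groups overlapped (log2 fold change 0.02 ± 0.16). The window in an intron of Trpm8, a cold-sensing cation channel, at chr1:88283701-88283800 had 66.5 CPM and a log2 fold change of -0.04 ± 0.17. The tandem repeat at chr17:3023001-3023100, with 50.5% repeated 8-mers, had 67.6, 64.8, 78.6, 73.0 and 62.4 CPM in DMSO libraries and 46.3 to 66.9 CPM in TBT libraries, with a median of 57.9. The repeat's groups overlapped, and its log2 fold change was -0.26 ± 0.17 (edgeR FDR = 1.00). The multi-copy window at chr8:19934801-19934900, with 12 to 13 copies of its stretches and the nearest CpG 132 bp away, had 57.6 CPM (log2 fold change 0.11 ± 0.18). The window in C230088H06Rik at chr4:147094001-147094100 had 55.4 CPM (log2 fold change -0.20 ± 0.18). No window among these 5 had an unadjusted p under 0.05.

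The F3 windows with the lowest p did not pass the threshold either. The window at chr1:190083801-190083900, outside genes, had 10, 5, 11, 11 and 4 counts in DMSO libraries and 12 to 20 in TBT libraries. Every TBT library exceeded every DMSO library in CPM, with a log2 fold change of 1.04 ± 0.25 (edgeR FDR = 0.590). The window at chr16:28331901-28332000 in Fgf12, which encodes an intracellular fibroblast growth factor homologue, had 6.01 ± 1.24 CPM in DMSO and 11.6 ± 4.30 in TBT libraries (log2 fold change 0.91 ± 0.27). Lower in TBT were chr4:137222101-137222200, outside genes, with 22.2 ± 2.03 against 13.1 ± 4.51 CPM (log2 fold change -0.79 ± 0.21), and chr10:32229601-32229700 in Nkain2, with 12.7 ± 2.10 against 7.23 ± 1.55 CPM (log2 fold change -0.83 ± 0.25). Of these, only the chromosome 4 window overlapped between exposures, and the last 3 had an FDR of 1.00. Like the F1 windows with the lowest p, they were picked for a low p, which itself favours groups without overlap. The share of all windows without overlap was not computed, so the separation is not a result of its own.

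The number of CpG-free windows in a gene body depends on which windows were tabulated, and in F1 these were spread unevenly. The megabase of chromosome 2 from 106 Mb held 212 CpG-free windows and that of chromosome 10 from 81 Mb 220, against 27 on chromosome 4 from 147 Mb. Window number was not compared with gene length. The 3 genes with most CpG-free windows were taken in each generation. In F1 these were Pcdha11, a protocadherin gene that overlaps others of its cluster, with 138 windows and 3.55 ± 0.427 CPM in DMSO against 3.36 ± 0.345 in TBT libraries, and Mpped2, a metallophosphoesterase, with 123 windows and 5.34 ± 0.256 against 5.51 ± 0.378 CPM. The glutamate receptor gene Grm5 followed with 118 windows and 3.50 ± 0.585 against 3.46 ± 0.259 CPM. In F3 they were Lrp1b, a lipoprotein receptor family gene (105 windows; 2.43 ± 0.345 against 2.61 ± 0.642 CPM), Cntnap2, a contactin-associated protein gene (89 windows; 1.95 ± 0.317 against 2.05 ± 0.513 CPM), and Dmd, which encodes dystrophin and lies on X (78 windows; 1.27 ± 0.130 against 1.28 ± 0.239 CPM). Within each gene the groups differed by less than their SD. Somatic marker genes held 18 CpG-free windows in 7 of 25 genes in F1 (3.98 ± 0.434 CPM in DMSO, 4.02 ± 0.571 in TBT) and 14 in 9 genes in F3 (7.28 ± 0.760 and 7.18 ± 0.558). Germ cell marker genes held 18 windows in 8 of 12 genes in F1 (6.95 ± 0.607 and 6.995 ± 0.242) and 11 in 4 genes in F3 (5.58 ± 0.633 and 5.04 ± 0.723). The count filter left few of these windows to test, 1 somatic and 6 germ cell windows in F1 and 5 and 3 in F3, and 0 of them had an unadjusted p under 0.05, so little can be read from this count beside the 5.04% and 4.18% of all windows.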

How the data were processed

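MBD-seq was performed with sonicated DNA of P6 cells by MethylMiner capture. The authors deposited raw read counts per 100 bp window for F1 (7 libraries) and F3 (12 libraries), and, as another column, the number of CpG sites per window (CF). CF was checked and equalled the CG count of the reference GRCm38 (mm10) genome in all windows, a CG starting at the last base included. The submitters' processing notes name Trim Galore, STAR, edgeR and mm10. The MBD aligner, read extension, duplicate handling and choice of the tabulated windows were not given in the sources used here, and these steps could move counts in repeats and near CpG sites. The authors deposited normalized RNA signal at LTR loci, from which only marker genes and LTR coordinates were taken. The study's own QSEA methylation analysis and input library were not used here.

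Transcript starts came from GENCODE M21. Copies were exact matches of 4 stretches of 32 bases on both strands of the assembled chromosomes. Window tests used edgeR 4.0.16 (quasi-likelihood, filterByExpr, TMM, FDR 0.05) over all windows of a table, with DESeq2 1.42.0 as an alternative. Library measures were compared by two-sided exact permutation tests (scipy 1.17.1), with 9 tests adjusted together. The edgeR test was checked on simulated data with 200 changed windows. No column of per-sample values was left unmapped. The study's methods call the samples independently generated, and a figure legend names 3 independent litters for the F1 cells it shows. F1 has 4 TBT libraries, and the labels tie no library to a litter. P-values therefore measure the spread between these samples. Labels give no batch. Wilson intervals and floors cover counting error only.

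Named windows were the 5 highest by mean CPM per generation and, since none passed FDR 0.05, the 2 with the lowest p in each direction. Genes were those holding named windows or, for gene bodies, the 3 with most CpG-free windows. Others are marked as chosen after their values were seen. The members and lists were chosen with earlier results of these data known. Alternatives were other scalings, filters, tests and position rules, and each library left out in turn.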

Additional observations from a re-analysis of the deposited data

Results flagged for a closer look

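Values far from the rest of their group, by the gap to the nearest library relative to the range of the group, were looked for in 41 sets of values from groups of 4, 5 or 7 libraries. Chance alone flags about 1 in 20 such groups. In F1, TBT library 5 had 1.65 CPM in windows more than 300 bp from a CpG, with the nearest TBT library at 1.52, and its near windows exceeded its far windows by 4.04-fold, with the nearest at 4.38. In F3, TBT library 8 had 1.27 CPM in those far windows, with the nearest TBT library at 0.592. At chr4:64498101-64498200, TBT library 6 of F1 had 121 CPM, with the nearest TBT library at 82.6 CPM. At the Trpm8 window chr1:88283701-88283800, TBT library 12 of F3 had 52.9 CPM, with the nearest at 65.0 CPM. At the Nkain2 window chr10:32229601-32229700, DMSO library 5 of F3 had 9.05 CPM, with the nearest at 13.1 CPM. The cause of these values was not tested.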

How the results depend on the processing

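No paired analysis was possible because the DMSO and TBT libraries of a generation share no replicate number. The count of called F1 CpG-free windows was 0 with TMM from CpG-free windows, no count filter, DESeq2, a limit of 5000 bp from starts or no LTR locus within 200 bp. It was 2, both lower in TBT, with library totals, median-ratio size factors, a smooth offset on CF, a mean of at least 20 counts, and the likelihood ratio test, and 0 to 1 with each library left out. The chr4:64498101-64498200 window then had log2 fold changes of -0.66, -0.66, -0.65, -0.62 and -0.62, and the Gnb1l window -0.76, -0.76, -0.75, -0.72 and -0.72. The F3 count and the interaction count were 0 under every setting and with each library left out, a choice added after seeing the data for the interaction.

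Library measures changed sign with small differences. The F3 capture ratio difference was -0.0247 from median counts, and the F3 high-count share difference was -0.270 for the highest 5%. Leaving out each library gave -0.838 to 0.190 points for the F1 share, -0.0124 to 0.163 for the F1 capture ratio and -0.262 to 0.145 points for the F1 high-count share. In F3 these ranges were -0.282 to 0.762, -0.0244 to 0.154 and -0.194 to 0.385, and for the generation comparison, added after seeing the data, -1.23 to 0.0665, -0.0997 to 0.121 and -0.494 to 0.108. Exact permutation p-values in these ranges were 0.133 or more. The F1 share and the F1 capture ratio reached 0.133 without DMSO library 3, where the exposure groups did not overlap. That is the smallest p possible with 2 DMSO and 4 TBT libraries, so the test could not go below 0.05 there. Directions of the share turned without DMSO library 1 or 2 in F1 and without DMSO library 3 or TBT library 8 in F3. That of the capture ratio turned without DMSO library 1 in F1 and DMSO library 4 or TBT library 10 or 12 in F3, and that of the high-count share without DMSO library 3 in F1 and DMSO library 1 or 4 or TBT library 9, 10, 11 or 12 in F3.

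Of the named windows, chr2:181918001-181918100 turned to -0.00797 with the smooth offset and ranged from -0.0136 to 0.0693 with a library left out. The Sp110 window ranged from -0.161 to 0.00243 and the chr10 repeat from -0.117 to 0.213. Of all alternative values for the named windows, 275 kept their direction and side of the threshold, 11 passed the threshold where the reported value did not, and 7 changed sign. For the library measures and the counts of called windows, generation comparisons included, 176 alternatives gave the same result, 6 moved and 30 changed sign. The count filter left 9.13% of the F1 and 13.5% of the F3 CpG-free windows for testing, and simulated 1.5-fold changes were recovered in 0 of 200 windows of the whole table in each generation. The cause of the changes was not tested.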
